A study of Mus musculus with 9 samples.

Results

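The splicing factors and nuclear RNA-binding proteins described here were the probe sets whose only platform gene symbol starts with Hnrn, Srsf, Sf3, Snrp, Rbm, Prpf or U2af, or is Ssb, Tra2a or Tra2b. Of the 12488 probe sets in the deposited table, 93 met this rule, and they belonged to 70 genes. A further 10 probe sets carried such a symbol beside other symbols and were left out. The members were chosen by symbol, but the family was selected on values of these same arrays, namely the falls of Ssb, Hnrnpu and 1 probe set of Rbmx against 0 min. Every difference from 0 min below is therefore given as a description, as is every call or count that limma's test gave for it. No p-value is printed for a single probe set there, and most differences carry a standard error.

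OB-6 cells, an osteoblastic line derived from mouse bone marrow, were harvested at 0, 30 or 60 min of treatment with parathyroid hormone (PTH), and total RNA was hybridised to 1-colour short-oligonucleotide arrays. Each time had 3 arrays, lettered a, b and c, which makes 9 arrays in all. All of them came from 1 cell line, and the dose of PTH is not given in the sources used here. None of the 9 arrays is labelled as an untreated culture at 30 or 60 min. PTH and time in culture therefore cannot be told apart in a contrast with 0 min. Whether the 3 arrays of a time represent separate cultures is not stated, so errors and p-values cover the spread among these arrays, and part of it may be technical.

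Pre-mRNA splicing is carried out by the spliceosome, which assembles on each intron from small nuclear ribonucleoproteins (snRNPs) and many further proteins. U2AF and the SF3 complexes recognise the 3′ splice site and the branch point, the PRP proteins act in the assembly and activation of the spliceosome, and the Sm proteins form the ring at the core of the snRNPs. SR proteins and heterogeneous nuclear ribonucleoproteins (hnRNPs) bind exons and introns and shift which splice sites are used, often in opposite directions. RBM proteins share an RNA recognition motif, and several act as splicing regulators. La, encoded by Ssb, binds the oligouridine ends of new RNA polymerase III transcripts. In osteoblasts the PTH receptor raises cAMP, and the cAMP-responsive transcription factor CREB binds the palindrome TGACGTCA or its core TGACG.

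Promoter windows from RefSeq (assembly GRCm38.p6, 250 bases before to 50 after an annotated start) were found for 62 of the 70 genes and searched on both strands for these letters. The windows of Ssb, Hnrnpu and Rbmx are printed because these genes gave the members called lower at both times, that of Snrpc because it was called higher at 60 min and holds the core, and that of Snrpg because it alone among the members holds the full palindrome. Capitals mark TGACG or its reverse complement CGTCA, and every sequence runs 5′ to 3′ along the gene. The windows lie at chr2:69861312-69861611 on the plus strand for Ssb, chr1:178337766-178338065 on the minus strand for Hnrnpu, chrX:57392987-57393286 on the minus strand for Rbmx, chr17:27839837-27840136 on the plus strand for Snrpc and chr6:86371290-86371589 on the plus strand for Snrpg. The RefSeq gene table gives other starts for Hnrnpu, Rbmx and Snrpc. It places Hnrnpu at chr1:178321108-178338891, so the Hnrnpu window lies inside the gene and the bases before that start were not searched. For Snrpc its start is 27840028, within the window.
Ssb: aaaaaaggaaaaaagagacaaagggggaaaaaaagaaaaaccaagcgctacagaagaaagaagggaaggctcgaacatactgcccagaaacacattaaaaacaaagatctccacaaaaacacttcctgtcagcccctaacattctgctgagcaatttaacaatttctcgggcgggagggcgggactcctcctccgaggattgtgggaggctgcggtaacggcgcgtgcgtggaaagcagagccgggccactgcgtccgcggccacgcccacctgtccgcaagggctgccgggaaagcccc
Hnrnpu: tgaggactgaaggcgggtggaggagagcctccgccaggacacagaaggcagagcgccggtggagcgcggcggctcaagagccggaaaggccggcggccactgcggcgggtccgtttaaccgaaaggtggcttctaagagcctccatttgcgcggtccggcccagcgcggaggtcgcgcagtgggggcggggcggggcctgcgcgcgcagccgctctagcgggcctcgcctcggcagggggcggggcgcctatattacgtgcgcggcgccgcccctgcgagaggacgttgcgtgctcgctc
Rbmx: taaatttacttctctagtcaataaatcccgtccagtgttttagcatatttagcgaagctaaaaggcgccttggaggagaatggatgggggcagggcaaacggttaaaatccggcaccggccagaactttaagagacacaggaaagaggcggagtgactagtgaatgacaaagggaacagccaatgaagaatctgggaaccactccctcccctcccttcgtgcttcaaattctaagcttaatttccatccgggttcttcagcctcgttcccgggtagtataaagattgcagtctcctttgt
Snrpc: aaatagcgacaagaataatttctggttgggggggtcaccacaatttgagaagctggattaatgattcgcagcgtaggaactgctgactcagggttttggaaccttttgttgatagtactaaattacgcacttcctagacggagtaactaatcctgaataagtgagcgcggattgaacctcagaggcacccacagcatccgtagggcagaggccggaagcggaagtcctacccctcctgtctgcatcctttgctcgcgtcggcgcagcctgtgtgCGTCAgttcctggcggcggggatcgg
Snrpg: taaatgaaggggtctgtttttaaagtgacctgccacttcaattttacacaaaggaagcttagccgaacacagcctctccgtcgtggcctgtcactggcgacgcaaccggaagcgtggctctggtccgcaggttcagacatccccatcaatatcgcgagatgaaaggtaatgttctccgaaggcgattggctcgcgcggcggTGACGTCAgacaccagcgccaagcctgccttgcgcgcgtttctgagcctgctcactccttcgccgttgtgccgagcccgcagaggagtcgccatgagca

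The windows of Ssb, Hnrnpu and Rbmx hold neither TGACG nor CGTCA. In Snrpc the core begins 24 bases after the start used for its window. In Snrpg the palindrome, which holds the core on both strands, begins 49 bases before the start used. Over all members, 34 of 62 genes (54.8%) held the core, against 33.1% of the 6577 genes of the array with a window and 23% of all 27025 genes with one. Split by the calls at 60 against 0 min, the core was in the windows of 8 of 18 genes with a probe set called lower (44.4%), 1 of 4 with one called higher (25%) and 23 of 38 tested genes with neither (60.5%). The palindrome TGACGTCA was in 1 of 62 member genes (1.61%), against 3.16% of the array's genes. A further motif, the ETS core CGGAAG with its reverse complement CTTCCG, was in 29 of 62 (46.8%), against 29.7% of the array's genes. The windows had a median GC content of 60.5% for members and 59.7% for the array. A match of letters describes the window and shows no binding.

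The deposited intensities are linear and had been scaled, since each array's mean without 2% of the probe sets at either end was 250.1 or 250.2. Array b of 60 min was the least like the others, its correlations with them having a median of 0.938, against medians of 0.954 to 0.967 for the other 8 arrays. Of 10 osteoblastic markers 6 had a probe set and 5 passed the filter on low values, with summed intensities of 16297 to 18159 at 0 min, 17458 to 18469 at 30 min and 19254 to 23658 at 60 min. The PTH receptor gene Pth1r was dim, at 6.7 to 41.6. The immediate-early gene Fos, a check of the treatment, averaged 30.9 ± 3.45 at 0 min, 698 ± 104 at 30 min and 169 ± 46.5 at 60 min (SD, n = 3 arrays each). Markers of fat, of blood cells and osteoclasts, of muscle and of cartilage had summed intensities that overlapped between 0 and 60 min, except those of cartilage (27.5 to 37.6 at 60 min, against 12.8 to 18.1 at 0 min). The filter was passed by 4 of 5 blood and osteoclast markers, 2 of 3 muscle markers and 1 of 3 measured fat markers. The brightest of these was the osteoclast marker Ctsk, averaging 598.5 at 0 min and 546.8 at 60 min. The 3 endothelial markers summed to 72.8 to 75.9 at 60 min, against 27.1 to 37.0 at 0 min, and none of the endothelial or cartilage markers passed the filter. Among the 3′ and 5′ control probe sets, the log2 ratio of 3′ over 5′ signal for the transferrin receptor was 1.66 to 1.92 at 60 min, against 1.04 to 1.29 at 0 min, while the ratios for Gapdh, beta-actin and pyruvate carboxylase overlapped. The 5′ transferrin receptor probe set was dim, at 18.6, 4.9 and 8.9 at 60 min and 30.0, 24.3 and 28.6 at 0 min. Its ratio therefore depends on the constant added before taking log2. These values differed between 60 and 0 min as many members did, and their part in the members' differences was not tested.

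Fold changes are differences of log2(intensity + 11.8), a scale on which changes of dim signals look smaller. Testing required that at least 3 of the 9 arrays exceed an intensity of 44.69, which held for 82 of the 93 members, from 67 genes, and for 7884 probe sets in all. A probe set was called at a Benjamini-Hochberg adjusted p under 0.05 in limma's moderated test over these 7884, and "rose" and "fell" are used of called probe sets alone. Intensities depend on the probes, so levels are not compared between genes, and "brighter" or "dimmer" only tells probe sets apart by their signal. Of the 82 tested members, Hnrnpu 160316_at and Rbmx 97848_at passed the filter through their 0 min arrays alone, none of their 6 arrays with PTH exceeding 44.69, and Ssb, Prpf4b and Rbm25 exceeded it beyond 0 min on 1 array each. Such probe sets could be tested only because they were high at 0 min, so their calls add no support to a count of falls. Names ending in _f_at, _r_at or _s_at mark probe sets whose probes met the array's design rules for specificity only in part.

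After 30 min of PTH, 3 member probe sets were lower than at 0 min and none was higher. They were the single probe set of Ssb, 1 of Hnrnpu, an abundant hnRNP also found on chromatin, and the dimmer of the 2 tested for Rbmx, the X-linked gene of hnRNP G. The share that fell was 3.66% of the tested members, against 0.457% of all tested probe sets, and the share that rose was 0%, against 0.482%. As the family was selected on this contrast, nothing is read from that gap. Each of the 3 also exceeded the filter intensity on at most 1 array with PTH. RNA came from whole cultures, in which fewer cells expressing a gene and less of its RNA per cell cannot be told apart. The median log2 fold change over the 82 members was -0.14, against 0.05 over all tested, and 54 of the 82 lay below 0 (65.9%, against 43.0% of all). At an unadjusted p under 0.05 in limma's test there were 29 of the 82 members and 1412 of the 7884 tested, a gap that the same selection affects. In the classes without a call the brightest probe sets stood at -0.01 (SE 0.09) for Srsf2, 0.15 (SE 0.10) for U2af2, 0.13 (SE 0.10) for Snrpe and -0.03 (SE 0.11) for Prpf8.

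On Ssb's probe set 92579_at the 3 arrays of each time read 204, 175 and 107 at 0 min, 64.6, 15.6 and 22.9 at 30 min and 40, 28.3 and 30.1 at 60 min. Every array at 30 and 60 min was below all 3 at 0 min, and replicate a was the highest of the 30 min arrays. The log2 fold change was -2.02 (SE 0.37) at 30 min and -1.93 (SE 0.37) at 60 min. Its size depended on the added constant. With a constant of 1 it was -2.41 at 30 min and -2.24 at 60 min, and with 32 it was -1.59 and -1.55. Hnrnpu (160316_at) read 140.2, 78.8 and 123 at 0 min, 35.4, 20 and 22.9 at 30 min and 34.4, 21.5 and 26.4 at 60 min. Again no array with PTH reached the lowest at 0 min, and the log2 fold changes were -1.72 (SE 0.27) at 30 min and -1.66 (SE 0.27) at 60 min. All 6 arrays with PTH lay below the filter intensity, and the size of the difference at 60 min depended on the added constant, at -2.0 with a constant of 1 and -1.28 with 32. A dimmer Hnrnpu probe set, 93761_at, did not pass the filter and read 20.4, 26.0 and 22.0 at 0 min, 9.1, 11.1 and 12.5 at 30 min and 13.9, 8.6 and 22.0 at 60 min, so its arrays at 30 min lay below those at 0 min and its arrays at 60 min overlapped them.

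For Rbmx, the probe set 97848_at read 121, 82.6 and 79.2 at 0 min, 27.7, 20 and 10.8 at 30 min and 14.9, 9.7 and 14.9 at 60 min. It was below the 0 min arrays on all 6 arrays with PTH, with log2 fold changes of -1.77 (SE 0.30) at 30 min and -2.07 (SE 0.30) at 60 min. Those 6 arrays were near the constant of 11.8 and below the filter intensity, and the difference at 60 min was -2.74 with a constant of 1 and -1.47 with 32. The brighter probe set 97847_at read 242, 203 and 191 at 0 min, 209, 218 and 176 at 30 min and 209, 234 and 199.9 at 60 min. Its arrays overlapped at all times, and its log2 fold changes were -0.07 (SE 0.14) and 0.02 (SE 0.14) at 30 and 60 min, values whose sign turned when single arrays were left out. All 3 calls at 30 min were lost without 0 min replicate a, without 0 min replicate c and without 30 min replicates b or c, with log2 fold changes of the 3 probe sets still between -2.27 and -1.56. Without 0 min replicate b only Hnrnpu was called, and without 60 min replicate c all but Ssb. Without 60 min replicate b, which enters only through the shared spread, 15 members were called lower at 30 min and 4.96% of all probe sets. Without 30 min replicate a 8 members and 3.12% of all were called.

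**Figure D1:**
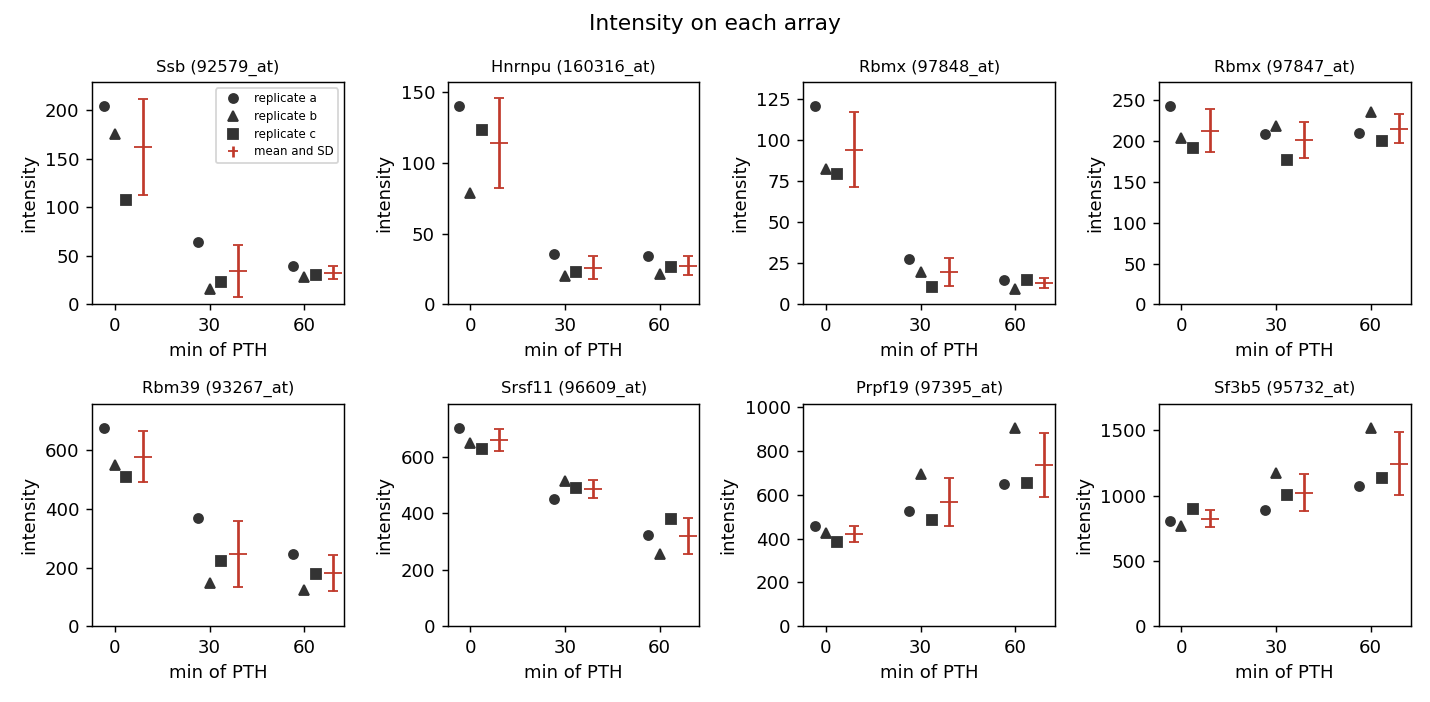
Intensity (linear, y axis from 0) on each array at 0, 30 and 60 min of PTH for 8 member probe sets, with circles, triangles and squares for replicates a, b and c and the red bar for the mean and SD of 3 arrays. Ssb, Hnrnpu and Rbmx 97848_at were lower on every array at 30 and 60 min, Rbmx 97847_at stayed between 176 and 242, and Prpf19 and Sf3b5 were higher at 60 min with replicate b highest.

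By 60 min, 23 member probe sets of 19 genes had fallen and 6 of 6 genes had risen against 0 min, while 53 were not called. The fallen share was 28.0% of tested members, against 8.73% of all tested probe sets, and the risen share was 7.32%, against 4.35%. Under 75th percentile scaling 24 had fallen (29.3%, against 8.26% of all) and 11 risen (13.4%, against 6.44%). Under cyclic loess 22 had fallen (26.8%, against 7.88%) and 2 risen (2.44%, against 2.88%), so the risen share of members was then below that of all probe sets, as it was without the variance trend (1.22%, against 2.45%). The contrast shares its 0 min arrays with the one at 30 min on which the family was selected, so these shares are also descriptions. The 23 falls include Ssb, Hnrnpu 160316_at, Rbmx 97848_at and Prpf4b, which exceeded the filter intensity on at most 1 array with PTH each. The median log2 fold change of members was -0.26, against 0.03 for all tested, and 50 of 82 lay below 0 (61.0%, against 46.6%). The hnRNP class held 8 falls among 19 probe sets and the RBM class 6 among 17, and neither held a rise. The SR class had 3 falls and 1 rise among 15, U2AF and SF3 2 falls and 3 rises among 13, the PRP class 2 falls and 1 rise among 8, and the snRNP class 1 of each among 9. Class medians at 60 min were -0.61 for hnRNPs, -0.61 for SR proteins, -0.38 for RBM proteins, -0.04 for PRP proteins, 0.08 for snRNP proteins and 0.13 for U2AF and SF3. At 30 min they were -0.51, -0.22, -0.27, -0.03, -0.01 and 0.05 in the same order of classes.

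**Figure D2:**
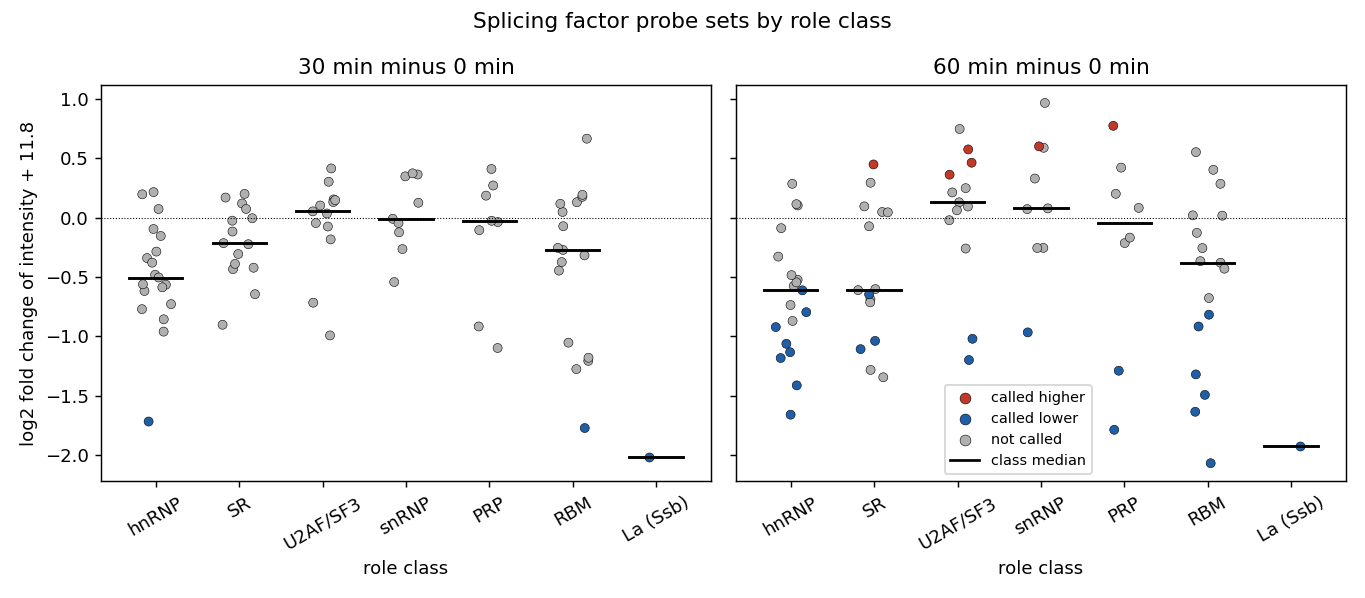
Log2 fold change of intensity + 11.8 for each of the 82 tested member probe sets (points) at 30 minus 0 min (left) and 60 minus 0 min (right), grouped by role class, with the class median as a bar, called higher in red, called lower in blue and not called in grey. The hnRNP, SR and RBM medians lie below 0 in both panels, while those of U2AF/SF3 and snRNP proteins stay within 0.13 of 0.

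These counts leaned on single arrays. Without 0 min replicate a, 2 of the 23 falls kept their call, Rbmx 97848_at and Srsf11, while 0.583% of all tested probe sets were called lower. Without 0 min replicate b 3 kept it (0.875% of all), without 0 min replicate c 11 did (2.37% of all), and without 60 min replicate b or c 16 did (4.73% and 5.9% of all). The direction of all 29 called probe sets held with each array left out, the falls lying between -2.18 and -0.40. The 6 rises lost their call without any of the 0 min arrays, at log2 fold changes of 0.32 to 0.83, and 5 of them without 60 min replicate b or c. Without 30 min replicate a or b, 10 members were called higher (12.2%), against 5.66% and 4.43% of all.

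The median over members was lowest on 60 min replicate b, but not in every class. The median member stood at -0.57 from its 0 min mean on that array, against -0.15 and -0.29 on the arrays of replicates a and c, and the hnRNP, SR and RBM medians stood at -1.01, -1.15 and -0.67 there. The medians of U2AF and SF3, PRP and snRNP proteins lay above 0 on the same array, at 0.19, 0.11 and 0.07, and that of U2AF and SF3 was its highest of the 9 arrays. The median over all tested probe sets was 0.08 on that array. Without it, the median log2 fold change of members at 60 min was -0.24.

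**Figure D3:**
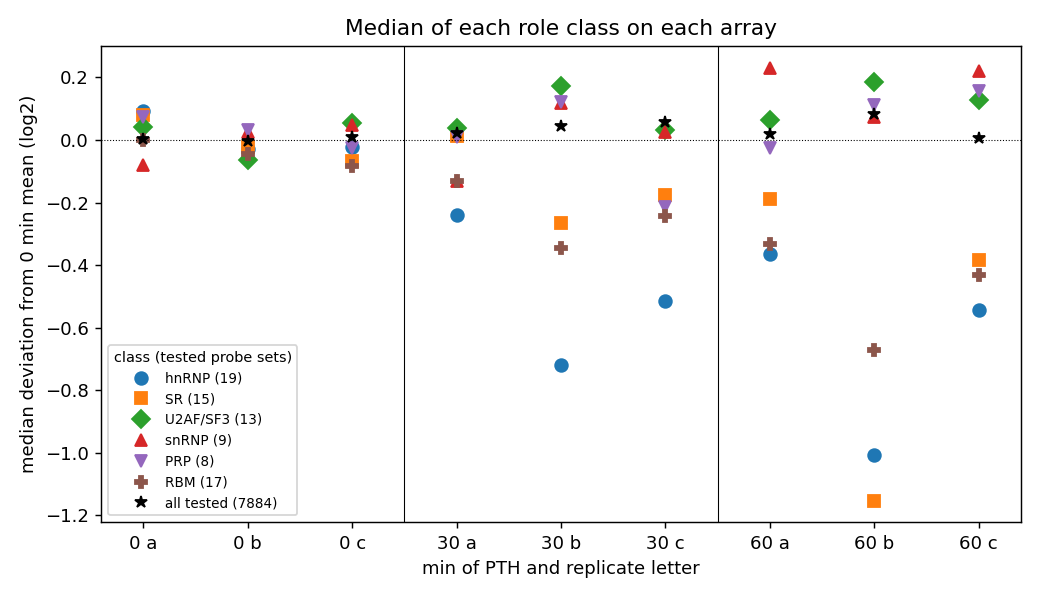
Median deviation from the 0 min mean, on the log2 scale, for each role class (coloured symbols) and for all 7884 tested probe sets (stars) on each of the 9 arrays (x axis, min of PTH and replicate letter). The hnRNP median is below 0 on every array with PTH and lowest, at -1.01, on 60 min replicate b, while the median of all tested probe sets stays within 0.08 of 0.

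Of the hnRNP genes, 7 of 16 had a probe set that fell at 60 min, against 555 of the 5869 tested single-symbol genes outside the members. After Hnrnpu the largest fall was that of Hnrnph1, an hnRNP that binds runs of G, whose probe set 93990_at read 2007, 1745 and 1612 at 0 min, 1363, 589.8 and 932 at 30 min and 935, 426 and 722 at 60 min. Replicates b were lowest at both times with PTH, and the log2 fold change at 60 min was -1.41 (SE 0.31). Hnrnph2, its close relative (94832_at), read 176, 149 and 131 at 0 min, 109, 73.3 and 119 at 30 min and 77.1, 51.7 and 72.0 at 60 min, a log2 fold change of -1.06 (SE 0.21). All arrays with PTH were below those at 0 min for both genes.

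Hnrnpr, related to the mRNA-binding protein Syncrip, fell by 1.18 (SE 0.22) on the log2 scale at 60 min, where 97491_at read 246, 163 and 195, against 478, 463 and 459 at 0 min. Hnrnpa2b1, which binds RNA and carries mRNAs along neurites as well as acting in splicing, fell on both its probe sets. The brighter, 93117_at, read 1561, 973 and 1483 at 60 min, against 1943, 2089.6 and 2004 at 0 min, a log2 fold change of -0.61 (SE 0.17). The other, 93118_at, had one of -0.80 (SE 0.17). For Hnrnpdl, a relative of Hnrnpd, 96084_at fell by 0.92 (SE 0.27) and 96083_s_at stood at -0.52 (SE 0.17) with no call, and the arrays of both lay below 0 min at either time. For Hnrnpul2, 104296_at fell by 1.14 (SE 0.29), with 79.0, 23.5 and 56.7 at 60 min, against 120.2, 119.7 and 122 at 0 min, and replicate b was far the lowest. The brighter Hnrnpul2 probe set, 104609_at, was not called at -0.33 (SE 0.14) and read 238, 293 and 206 at 60 min, against 296, 316 and 313 at 0 min, with replicate b the highest of its 60 min arrays.

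The 11 hnRNP probe sets without a call at 60 min ranged from -0.87 for Hnrnpm, a splicing regulator, to 0.28 for Hnrnpd, also called AUF1 and known for binding AU-rich mRNA. Hnrnpm (96266_at) read 1308, 1094 and 993 at 0 min, 819, 523 and 543 at 30 min and 820.3, 380.3 and 723 at 60 min. Those arrays with PTH were all below 0 min too, with a standard error of 0.27 on its log2 fold change. Hnrnpd read 931, 992 and 852 at 60 min, against 739, 736 and 793 at 0 min, with no overlap. Hnrnpa1, Hnrnpk and Hnrnph3 had log2 fold changes of -0.74 (SE 0.25), -0.55 (SE 0.18) and -0.58 (SE 0.22), and Hnrnpab, Hnrnpc and Hnrnpl had 0.10 (SE 0.11), -0.09 (SE 0.18) and 0.11 (SE 0.14). All 8 hnRNP calls were lost without 0 min replicate a, at log2 fold changes of -1.51 to -0.64.

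In the SR class, Tra2b, Srsf11 and Srsf5 fell at 60 min and Srsf9 rose. Srsf11, an SR-related protein (96609_at), read 703, 649.9 and 629.9 at 0 min, 452, 516 and 490.5 at 30 min and 322, 255 and 382 at 60 min. The 30 min arrays of Srsf11 lay between those of the other times without overlap, and its log2 fold change was -0.43 (SE 0.14) at 30 min and -1.04 (SE 0.14) at 60 min. Tra2b (160364_at), an activator of exon inclusion, read 980.2, 819 and 929.9 at 0 min, 1019.8, 450.1 and 665 at 30 min and 471, 313 and 482 at 60 min. At 30 min replicate a of Tra2b was above all 0 min arrays, and only at 60 min were all 3 below them, with a log2 fold change of -1.11 (SE 0.26).

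Srsf5 (99628_at) read 681, 571 and 519 at 60 min, against 978, 959 and 845 at 0 min, a log2 fold change of -0.65 (SE 0.13). Srsf9 (96834_at) read 1605, 1778 and 1645 at 60 min, against 1282, 1171 and 1222 at 0 min, one of 0.45 (SE 0.11). Srsf2, a founding SR protein with the brightest probe set of the class, had overlapping arrays on 94017_s_at, at 3769, 3536 and 3566 at 0 min, 3793, 3606 and 3437 at 30 min and 3894, 3601 and 4130.2 at 60 min, with a log2 fold change at 60 min of 0.09 (SE 0.09). Srsf1, Srsf3 and Srsf10 had 2 tested probe sets each, all below 0 at 60 min (-1.35 to -0.60) and none called. For each of the 6, replicate b was the lowest array at 60 min. Srsf6 stood at -0.07 (SE 0.11), and Srsf4 at 0.04 (SE 0.14) and 0.29 (SE 0.14).

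Among RBM genes, Rbm39, a coactivator related to U2AF's large subunit, fell on both probe sets. Its brighter one, 93267_at, read 677, 549 and 509.9 at 0 min, 368, 147 and 222 at 30 min and 247, 124 and 178 at 60 min. The other, 94689_at, read 327, 344 and 349 at 0 min, 295, 83.5 and 116 at 30 min and 161, 67.1 and 130.4 at 60 min. All arrays with PTH were below 0 min on each, and 30 min replicate a stayed nearest to it. The log2 fold changes were -1.28 (SE 0.30) and -1.18 (SE 0.39) at 30 min and -1.64 (SE 0.30) and -1.49 (SE 0.39) at 60 min. Rbms1, which binds single-stranded DNA and RNA, fell on 96207_at by 1.32 (SE 0.39) and on 94972_at by 0.82 (SE 0.15). Its 60 min arrays read 412, 127 and 364 on the one and 327, 268 and 248 on the other, against 738, 768 and 578 and 537, 502 and 468 at 0 min. Rbm18 (94898_at) fell by 0.92 (SE 0.22), with 194, 126 and 152 at 60 min, against 292, 334 and 285 at 0 min, while its 30 min arrays overlapped those at 0 min.

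The 11 other RBM probe sets were not called at 60 min and ranged from -0.68 for Rbm25 to 0.55 for Rbm14. Rbm25, a regulator of splice site choice, read 70.3, 82.2 and 59.7 at 0 min, 45.4, 14.9 and 17.5 at 30 min and 37.2, 39.0 and 42.3 at 60 min and had log2 fold changes of -1.21 (SE 0.30) at 30 min and -0.68 (SE 0.30) at 60 min. Rbm14, a nuclear coactivator, stood at 0.67 (SE 0.16) at 30 min and 0.55 (SE 0.16) at 60 min, and Rbm42 at 0.40 (SE 0.13) at 60 min. Rbm8a, a core protein of the exon junction complex, stood at -0.43 (SE 0.15), and Rbm15 and Rbm17 at -0.37 (SE 0.18) and -0.26 (SE 0.16). Rbmxl1, a retrocopy related to Rbmx, read 315, 196 and 316 at 60 min, against 290.2, 286 and 311 at 0 min, with overlap. Without 60 min replicate b 3 of the 6 RBM falls lost their call (Rbm18, Rbm39 94689_at and Rbms1 96207_at), and without 0 min replicate a all did but Rbmx.

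Sf3b1, the SF3B subunit at the branch point, was the single gene of its class to fall. Its 97808_at read 865, 809.6 and 776 at 0 min, 576, 289 and 395 at 30 min and 518, 303 and 396 at 60 min, and its 96777_at read 288, 279 and 312 at 0 min, 248, 133 and 157 at 30 min and 159.9, 75.7 and 143 at 60 min. No array with PTH reached the 0 min arrays on either, and the log2 fold changes at 60 min were -1.02 (SE 0.24) and -1.20 (SE 0.27). No other SF3 or U2AF subunit was called lower. Sf3b5, a small SF3B subunit (95732_at), read 809, 766 and 894 at 0 min, 888, 1173 and 1005 at 30 min and 1076, 1518 and 1137 at 60 min, and rose by 0.575 on the log2 scale at 60 min (SE 0.15).

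Sf3a2, a subunit of the SF3A complex, rose on 92196_f_at, with 3036, 3566 and 3117 at 60 min, against 2441, 2139 and 2458 at 0 min and a log2 fold change of 0.46 (SE 0.12). Its other probe set, 92197_r_at, was not called and stood at 0.75 (SE 0.23). U2af2, the large U2AF subunit that binds the polypyrimidine tract, rose by 0.36 (SE 0.10), with 2888, 3327 and 3306 at 60 min, against 2599, 2306 and 2488 at 0 min. Both calls were lost under quantile normalization and cyclic loess, where U2af2 stood as low as 0.18. Sf3a1, Sf3a3, Sf3b2, Sf3b3, Sf3b6, U2af1 and U2af1l4 lay between -0.26 and 0.25 with no call.

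In the snRNP class Snrpc, the U1-specific C protein, rose. Its 94313_at read 648, 661 and 771 at 0 min, 747, 1116 and 871 at 30 min and 899, 1321 and 986 at 60 min, a log2 fold change of 0.60 (SE 0.18) at 60 min, and 60 min replicate b was highest. The call of Snrpc was lost under cyclic loess, as were those of Srsf9, Rbms1 96207_at and Hnrnpdl 96084_at. Snrpb, which encodes the Sm proteins B and B′, was not called on 160555_r_at at 0.97 (SE 0.34), with 344, 374 and 457 at 0 min, 342, 548 and 175 at 30 min and 546, 911 and 922 at 60 min. Its 60 min arrays all lay above those at 0 min. The Sm genes Snrpd3, Snrpe and Snrpg stood at -0.26 (SE 0.15), 0.08 (SE 0.10) and 0.07 (SE 0.12), so Snrpg, with the palindrome in its window, differed from 0 min by less than its standard error. Snrpa1, of the U2 snRNP, stood at 0.33 (SE 0.16), and Snrp1c-ps2, named as a pseudogene, at -0.26 (SE 0.42).

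Within the PRP class, Prpf4b, a kinase of spliceosomal proteins, and Prpf38b fell. Prpf4b (102017_at) read 121, 126 and 86.1 at 0 min, 72.8, 30.3 and 39.2 at 30 min and 42.3, 4.9 and 36.1 at 60 min, where 60 min replicate b was near 0, and its log2 fold change was -1.79 (SE 0.43), or -1.25 without that array. Prpf38b (97919_at) read 117, 47.9 and 107 at 60 min, against 251, 202 and 228 at 0 min, a log2 fold change of -1.29 (SE 0.28). Prpf19, a ubiquitin ligase at the centre of a complex that activates the spliceosome, rose on 97395_at, which read 457, 424 and 382 at 0 min, 527, 692 and 486 at 30 min and 647, 905 and 655 at 60 min. All arrays with PTH were above those at 0 min, and the log2 fold change at 60 min was 0.77 (SE 0.17). Prpf8, the large protein at the heart of the U5 snRNP, stood at 0.20 (SE 0.11), Prpf6 at 0.08 (SE 0.10), Prpf31 at 0.42 (SE 0.13) and Prpf38a at -0.17 (SE 0.21).

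**Figure D4:**
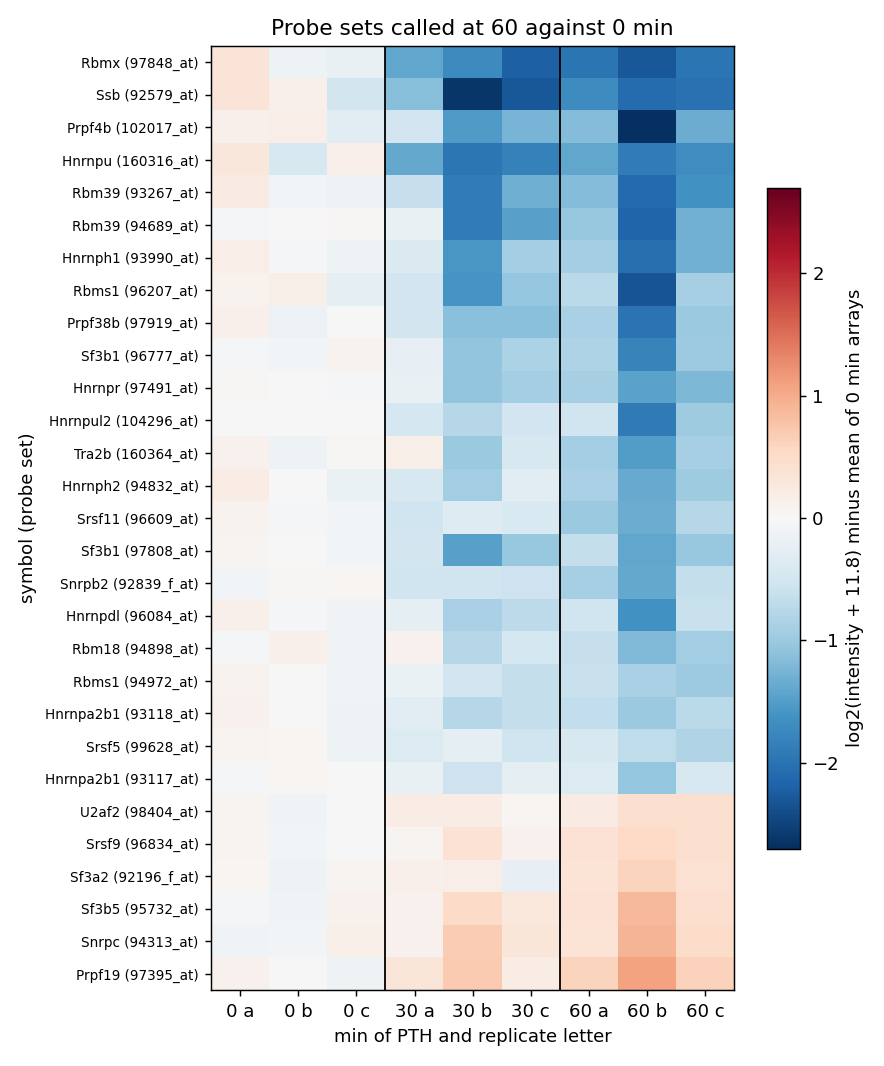
Log2(intensity + 11.8) minus the mean of the 3 arrays at 0 min for the 29 member probe sets called at 60 against 0 min (rows, sorted by their log2 fold change) on the 9 arrays (columns), blue for lower and red for higher. The 23 fallen probe sets run from -2.07 to -0.61 and most are darkest on 60 min replicate b, and the 6 risen ones run from 0.36 to 0.77.

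The 11 members that did not pass the filter were probe sets of Hnrnpab, Hnrnpdl, Hnrnpu, Rbm14, Rbm22, Rbm6 and Snrpb, 2 of Srsf1 and both of Prpf39. Their intensities lay between 0.6 and 62.4. Prpf39 97548_at, with 26.6, 15.5 and 17.5 at 0 min, 3.1, 3.4 and 0.6 at 30 min and 1.7, 2.0 and 2.5 at 60 min, was lower on all 6 arrays with PTH, and its other probe set overlapped throughout.

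Whether probe sets of the same gene moved alike was tested on the difference between their log2 fold changes, for each further tested probe set against the brightest of its gene. The table gave 1178 such pairs, 15 of them from 15 member genes. Rbmx gave the single pair of the 1178 that was called at 30 min, and again at 60 min, which is 0.0849% at 30 min and 0.0849% at 60 min. The dimmer probe set minus the brighter was -1.70 (SE 0.21) at 30 min and -2.09 (SE 0.21) at 60 min. The call at 30 min was lost without any 1 of the 0 min arrays and without 30 min replicate b or c, and that at 60 min held with each of the 9 arrays left out. This divergence was already known when the family was chosen and is a description. The pair could be tested only because the dimmer probe set passed the filter through its 0 min arrays. Its arrays with PTH were near the added constant, so the calls and their hold with arrays left out add no support. The platform annotation gives the 2 probe sets the same symbol, and which transcripts of Rbmx each one detects was not analysed here.

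Of the other 14 pairs none was called at either time, and as these differences also rest on the 0 min arrays they are given without p-values. The next in size was Snrpb2, the B″ protein of the U2 snRNP. Its 162026_r_at read 243, 184 and 152 at 0 min, 326, 194 and 230.4 at 30 min and 316, 292 and 267 at 60 min, and its 92839_f_at read 252, 274 and 277 at 0 min, 181, 181 and 178 at 30 min and 138, 96.3 and 168 at 60 min. The 60 min arrays lay all above 0 min on 162026_r_at, with a log2 fold change of 0.59 (SE 0.20) and no call, and all below on 92839_f_at, which fell by 0.97 (SE 0.17). The difference was -1.56 (SE 0.28) at 60 min and -0.89 (SE 0.28) at 30 min. Both names carry a suffix for less specific probes.

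Prpf19 was next, its dimmer 162235_f_at reading 46.5, 51.8 and 53.3 at 0 min, 82.6, 64.4 and 37.5 at 30 min and 19.7, 65.8 and 51.4 at 60 min. Those arrays overlapped at all times, and the difference at 60 min was -0.99 (SE 0.30). The differences were -0.81 (SE 0.37) for Hnrnpul2, -0.74 (SE 0.29) for Srsf1 and 0.67 (SE 0.23) for Srsf10. For the remaining 9 genes they lay between -0.40 for Hnrnpdl and 0.50 for Rbms1. Among these, Rbms1 (0.50, SE 0.37), Rbm39 (0.14, SE 0.20), Sf3b1 (-0.18, SE 0.16) and Hnrnpa2b1 (-0.18, SE 0.17) had both probe sets called lower. Between 60 and 30 min limma called none of the 1178 pairs (0%), with 85 at an unadjusted p under 0.05. Of the 15 member pairs, Sf3b1 (-0.45, SE 0.16), Prpf19 (-0.76, SE 0.30) and Snrpb2 (-0.67, SE 0.28) were at an unadjusted p under 0.05, each with a limma adjusted p of 0.638.

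**Figure D5:**
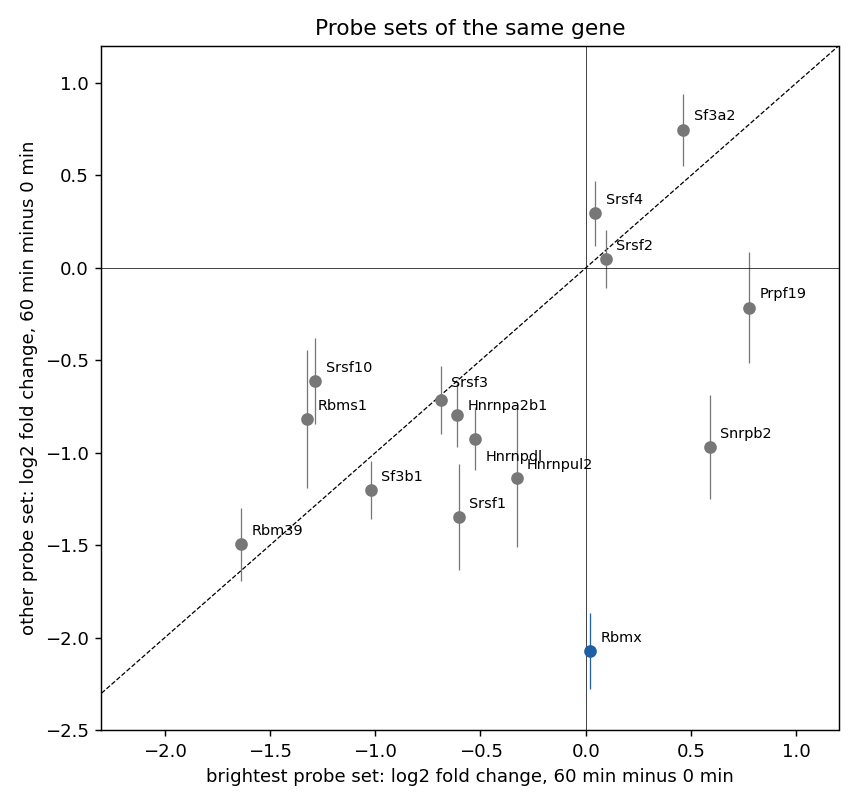
Log2 fold change at 60 minus 0 min of the dimmer probe set (y axis) against that of the brightest (x axis) for the 15 member genes with 2 tested probe sets, with the standard error of the difference as a vertical bar and equality as the dashed line. Rbmx, in blue, is the single called pair, at 0.02 on the x axis and -2.07 on the y axis, and Snrpb2 and Prpf19 also have opposite signs.

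Between 60 and 30 min, a contrast the choice of members did not use, no member was called by limma, and of all tested probe sets 0% rose and 0.0254% fell (2 of 7884). At an unadjusted p under 0.05 in limma's test there were 13 of the 82 members and 715 of the 7884 tested. The log2 fold changes of members lay between -0.69 and 1.23, with a median of -0.10, against -0.05 over all tested. The smallest adjusted p among members was that of Rbm4b, an RBM protein related to Drosophila lark, on 100547_at, which read 357, 374 and 451 at 0 min, 472, 451 and 427 at 30 min and 282, 328 and 287 at 60 min. Its 60 min arrays were below all at 30 min, a log2 fold change of -0.57 (SE 0.13) with a limma adjusted p of 0.332.

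Next came Srsf11, at -0.60 (SE 0.14) (limma adjusted p = 0.379), whose arrays do not overlap between these times either. Snrpb on 160555_r_at had the largest difference, 1.23 (SE 0.34) (limma adjusted p = 0.526), with overlapping arrays. The 3 probe sets that fell by 30 min had log2 fold changes between 60 and 30 min of 0.09 (SE 0.37) for Ssb, 0.06 (SE 0.27) for Hnrnpu and -0.30 (SE 0.30) for Rbmx 97848_at, each about as large as its standard error or smaller. The brightest probe set of each class stood at -0.27 (SE 0.17) for Hnrnpa2b1, 0.10 (SE 0.09) for Srsf2, 0.21 (SE 0.10) for U2af2, -0.05 (SE 0.10) for Snrpe, 0.23 (SE 0.11) for Prpf8 and 0.06 (SE 0.16) for Rbm17, with limma adjusted p of 0.542 to 0.902. Exact permutation of 3 arrays against 3 has 0.1 as its smallest p, so no probe set could pass that way alone.

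Beside the members, a list of 103 other genes of splicing and nuclear RNA binding had a single-symbol probe set for 83, of which 110 probe sets existed and 95 were tested. At 60 min 21 probe sets of 18 genes had fallen (22.1%, against 8.73% of all tested) and 8 had risen (8.42%, against 4.35%), with a median log2 fold change of -0.21. At 30 min 2 had fallen (2.11%, against 0.457% of all tested) and none had risen (0%, against 0.482%), with a median of -0.08. The 2 were Clk1 and 1 probe set of Clk4, genes put on the list with their falls known, so nothing is read from that share. The largest falls at 60 min were those of the kinases of SR proteins Clk4 on 1 probe set (-2.11, SE 0.25) and Clk1 (-2.10, SE 0.34), of the zinc finger splicing factor Zranb2 (-1.82, SE 0.36) and of the nuclear matrix protein Matr3 (-1.80, SE 0.34). The other Clk4 probe set stood at -1.0 (SE 0.36) with no call. The largest rises were those of Lsm4 and Lsm2, of the Sm-like ring on U6 (0.68, SE 0.14 and 0.58, SE 0.14), of Txnl4a, a U5 protein (0.68, SE 0.16), and of Eftud2, the U5 GTPase (0.45, SE 0.12). The list was drawn up with the falls of Clk1 and Clk4 already known, and its calls were not recomputed with arrays left out.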

How the data were processed

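Total RNA of OB-6 cells at 0, 30 and 60 min of PTH was measured on 9 arrays, 3 per time, grouped by the labels. The deposited table holds 1 linear intensity per probe set and array, which the authors had already scaled, by software and a summary method not given in the sources used here. Symbols came from the platform annotation, and promoters and gene positions from RefSeq (GRCm38.p6). On log2(intensity + 11.8), whose constant is the 20th percentile over the table, limma 3.58.1 in R 4.3.3 fitted a mean per time (lmFit, then eBayes with trend, 6 residual and 4.68 prior degrees of freedom). The 66 control probe sets were left out, and p-values were adjusted by Benjamini-Hochberg over the 7884 tested probe sets. Probe sets of 1 gene were compared by the same fit on their difference, adjusted over 1178 pairs. The fit was tested on simulated data. Python 3.11.15 with matplotlib 3.10.9 drew the figures. The number of arrays limits the precision.

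The members, role classes and lists were chosen with earlier results of these data known. The genes named were Ssb, Hnrnpu and Rbmx, up to 12 of the largest called members each way per comparison, genes with several tested probe sets of which 1 was called, the brightest of a class without calls, and up to 4 called genes each way of the other splicing list. Tra2b, Hnrnph2, Srsf11, Srsf5, Rbm18 and Luc7l3, and the uncalled members outside that rule, were named after their values were seen. Alternatives were other constants, filters and scalings, no variance trend, only the 2 times compared, the brightest probe set of each gene, a block for the replicate letter, and leaving out single arrays.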

Additional observations from a re-analysis of the deposited data

How the results depend on the processing

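The medians of members kept their sign under every alternative run, from -0.20 to -0.09 at 30 min and from -0.36 to -0.15 at 60 min, both against 0 min. Counts of calls moved. Each count is followed by its share of members and the share of all probe sets tested. Falls at 30 min (3 as reported) numbered 0 with a stricter filter (0%, against 0.563% of all), 11 with only the 2 times compared (13.4%, against 3.6%) and 0 to 15 with 1 array left out (0% to 18.3%, against 0.0127% to 4.96%). Rises at 30 min (0) numbered 0 to 1 with 1 array left out (0% to 1.22%, against 0.19% to 2.11%). Falls at 60 min (23) numbered 15 with the brightest probe set of each gene (22.4%, against 9.7%) and 2 to 31 with 1 array left out (2.44% to 37.8%, against 0.583% to 13.3%). Rises at 60 min (6) numbered 2 without a filter (2.15%, against 1.69%), 11 with 75th percentile scaling (13.4%, against 6.44%), 2 under cyclic loess (2.44%, against 2.88%), 1 without the variance trend (1.22%, against 2.45%) and 0 to 10 with 1 array left out (0% to 12.2%, against 0.393% to 6.77%). Member pairs that differed at 30 min (1) numbered 0 with a constant of 1 and with the stricter filter, and 0 to 2 with 1 array left out. At 60 min (1) they numbered 0 with the stricter filter, which drops the dim probe set of Rbmx, and 1 with any array left out. Between 60 and 30 min no member was called under any alternative. For the other changes the cause was not tested.

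With the replicate letter as a replicate block, 9 members fell at 30 min (11%, against 2.55% of all), and 31 fell (37.8%, against 12.1%) and 9 rose (11%, against 6.24%) at 60 min. Same-letter arrays had correlations of their deviations of -0.128 to 0.078 between 0 min and a later time. Between 60 and 30 min they were 0.304 for letter a, 0.251 for b and 0.022 for c. The labels state no pairing, so the main fit does not use the letters, and whether they pair the samples was not tested. Of the 29 calls at 60 min, 2 held with each array left out and 23 under the 3 scalings. Rbmx 97847_at turned sign between arrays left out, with values of -0.14 to 0.021 at 30 min and -0.048 to 0.11 at 60 min. Sf3a2 92196_f_at at 30 min (0.03) stood at -0.017 under cyclic loess and at -0.039 to 0.16 with 1 array left out. For Hnrnpu 160316_at and Rbmx 97848_at, whose arrays with PTH all lay below the filter of 44.69, the size of the fall is limited by signal over background. The same limit bears on Ssb and Prpf4b, which exceeded that filter on 1 array with PTH each. For Prpf4b the difference at 60 min was -2.38 with a constant of 1 and -1.31 with 32.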

Other observations

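The tested member genes lay on 18 chromosomes. With each gene taken at its brightest probe set, the genes that fell at 60 against 0 min had a median genomic span of 20.6 kb (15 genes, 5.01 to 213.7 kb), those that rose had 9.31 kb (6 genes, 0.734 to 19.1 kb) and those without a call had 12.4 kb (46 genes, 0.378 to 54.3 kb), by the RefSeq gene table of GRCm38.p6. Across the 67 genes, the Spearman correlation of span with log2 fold change was -0.31 at 30 min and -0.22 at 60 min. That of mean intensity over the 9 arrays with log2 fold change was 0.26 at 30 min and 0.35 at 60 min. Whether span or signal has a part in the changes was not tested. These correlations are across genes that share the same 9 arrays and the same 0 min arrays, and genes are not independent replicates.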
